A study of Mus musculus with 6 samples.

Results

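The 8 leukocyte integrin subunit genes, Itgam, Itgal, Itgax, Itgb2, Itga4, Itgb1, Itgb7 and Itgae, were followed in CD45+ cells from digested arthritic mouse joints. The members were taken by their symbols, and all 8 had a row among the 20394 genes of the deposited single-cell count table, which holds 20 further rows with names of integrin subunits. C57BL/6 wild-type mice, male and 8 weeks of age at purchase per the study's methods, were immunised with methylated BSA in complete Freund's adjuvant and challenged with the same antigen in the knee on day 21 (antigen-induced arthritis). From that day they received intraperitoneal PBS as vehicle (2 samples) or 300 µg of PEPITEM, a peptide coupled to polyethylene glycol (4 samples), and the joints were taken on day 3, at the peak of inflammation. The cells were sorted on the leukocyte protein CD45 and the 3′ ends of their transcripts were counted cell by cell through unique molecular identifiers (UMIs, short tags added to each captured RNA before copying). The barcodes carry library numbers 1 to 6, which are not the library names of the sample labels and which no source used here ties to a sample, so vehicle and PEPITEM were not compared, and the libraries stand for 6 sets of cells of unknown treatment and not for replicates. Levels are therefore given as the UMIs of a gene per 1000000 UMIs of a cell class (CPM) pooled over all cells, with the lowest, median and highest library, and no p-value or standard deviation is given.

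Integrins are adhesion receptors built of one alpha and one beta chain, and a chain without its partner does not reach the cell surface efficiently. The Itgb2 product (CD18) pairs with the products of Itgal (CD11a, giving the ICAM receptor LFA-1), Itgam (CD11b, giving Mac-1, which is also complement receptor 3), Itgax (CD11c) and Itgad (CD11d). The Itga4 product pairs with that of Itgb1 to bind VCAM-1 and fibronectin, or with that of Itgb7 to bind the gut addressin MAdCAM-1, whereas Itgae (CD103) pairs with Itgb7 and binds E-cadherin. Leukocytes use these receptors to arrest on inflamed endothelium, cross it and stay in tissue, and their affinity is raised from inside the cell through the small GTPase Rap1, talin and kindlin. All values here are transcript levels, and surface protein was not analysed here.

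The table held 32953 cells and 486548899 UMIs, with 47273569 to 123367661 UMIs per library. Cells were placed by marker genes, none of them an integrin, in 29 classes holding 19231 cells, 26 of them with at least 100 cells. A further 8673 cells were placed in a lineage but in no listed class, and 5049 cells (15.3%) were not placed. The classes included 364 progenitors, 1345 promyelocyte-type precursors, 1099 cycling neutrophil precursors, 734 pro-B cells and 1663 pre-B cells. These are stages of blood cell formation in bone marrow. Whether marrow of the digested joints entered the sort was not tested, so differences between classes may set marrow cells beside synovial cells. Ly6g stood at 863 CPM in immature neutrophils, Siglech at 1665 CPM in plasmacytoid dendritic cells and Ncr1 at 344 CPM in NK cells. These genes were used in the gating, so their place was set in advance and does not check the classes. Ptprc, which encodes CD45 and was not gated on, ran from 104 CPM in fibroblasts to 2381 CPM in NK cells. The make-up of the libraries differed, with neutrophils at 9.90% to 38.9% of cells, resident macrophages at 0.792% to 12.6% and B cells at 10.6% to 33.2%, so members were compared within classes. In all, 138 barcode sequences occurred in more than 1 library (276 cells), and which of these cells are the same was not tested. A library entered the range of a class with at least 20 cells and 100000 UMIs of it.

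Itgam and Itgax are neighbours on mouse chromosome 7 (mm10, GENCODE vM21), with Itgam at chr7:128062640-128118491, Itgax at chr7:128129547-128150657 and 11055 bases between them, both on the plus strand. Itgad follows at chr7:128154376-128223816 and Itgal lies before them at chr7:127296260-127335138. The remaining members are Itgb2 at chr10:77530252-77565708, Itga4 at chr2:79255426-79333123, Itgb1 at chr8:128685654-128733200 and Itgae at chr11:73090583-73147446 on the plus strand, and Itgb7 at chr15:102215995-102231944 on the minus strand. The start regions of Itgam and Itgax are shown because the levels of these adjacent genes moved in opposite directions between the neutrophil stages described further on. The RefSeq promoter table (GRCm38.p6, from 250 bases before to 50 bases after the start) held 5 of the 8 members. Capitals mark GAGGAA or its reverse complement TTCCTC, letters found at the core of binding sites of the myeloid factor PU.1.
Itgam, chr7:128062390-128062689, plus strand: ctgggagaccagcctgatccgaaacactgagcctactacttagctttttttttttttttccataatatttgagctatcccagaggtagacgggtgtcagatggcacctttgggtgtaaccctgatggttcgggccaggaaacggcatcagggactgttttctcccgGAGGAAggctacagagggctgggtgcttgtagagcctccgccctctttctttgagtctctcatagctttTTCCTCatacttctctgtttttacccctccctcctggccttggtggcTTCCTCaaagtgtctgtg
Itgax, chr7:128129300-128129599, plus strand: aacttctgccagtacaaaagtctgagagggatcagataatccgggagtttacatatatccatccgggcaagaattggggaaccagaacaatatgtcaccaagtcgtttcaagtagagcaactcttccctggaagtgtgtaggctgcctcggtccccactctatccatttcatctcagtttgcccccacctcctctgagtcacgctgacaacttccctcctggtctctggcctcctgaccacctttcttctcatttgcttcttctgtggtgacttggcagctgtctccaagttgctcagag
The letters occurred 1 time forward and 2 times in reverse complement in the Itgam window and at no place in the Itgax window, and 28.3% of all 32851 promoters in the table held them on either strand. Among the member promoters in the table, 3 of 5 held them. The shorter letters GGAA and TTCC, which lie within the marked ones, also occur in both printed windows outside the capitals and were not counted. A match of letters is a description and not a binding site.

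The Itgam locus carries an annotation overlap in GENCODE vM21, and whether it bears on the deposited counts was not tested. The gene model Gm49368 (chr7:128062683-128128160) runs over Itgam on the same strand, and 3450 of the 5024 exonic bases of Itgam (68.7%) are shared with it, although none of the last 500 exonic bases, from which 3′ libraries draw most reads, are. The deposited gene list holds a second row named Itgam.1, and which gene model that row stands for is not given in the sources used here. Its UMIs came to 4.53% of those of Itgam in immature neutrophils and 10.7% in mature neutrophils, and the row was kept apart from Itgam.

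Across the 26 classes of at least 100 cells the 8 members divided the leukocytes differently. Itgam and Itgb2 were high through the neutrophils, monocytes and macrophages, Itgal in nonclassical monocytes, mature neutrophils, NK and T cells, and Itgax in dendritic cells. Itga4 led in migratory dendritic cells, NK cells, nonclassical monocytes and pro-B cells, Itgb1 in NK cells, macrophages and Cd4 T cells, Itgb7 in conventional Cd4 and gamma-delta T cells, type 2 innate lymphoid cells, type 1 and type 2 dendritic cells and classical monocytes, and Itgae in type 1 dendritic cells. Of the neighbouring classes in the order of levels with at least 3 libraries each, 21 of 23 pairs overlapped in their library ranges for Itgam, 22 of 23 for Itgal, Itgax and Itgb2, 23 of 24 for Itga4, 21 of 23 for Itgb1, and 20 of 23 for Itgb7 and Itgae.

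**Figure D1:**
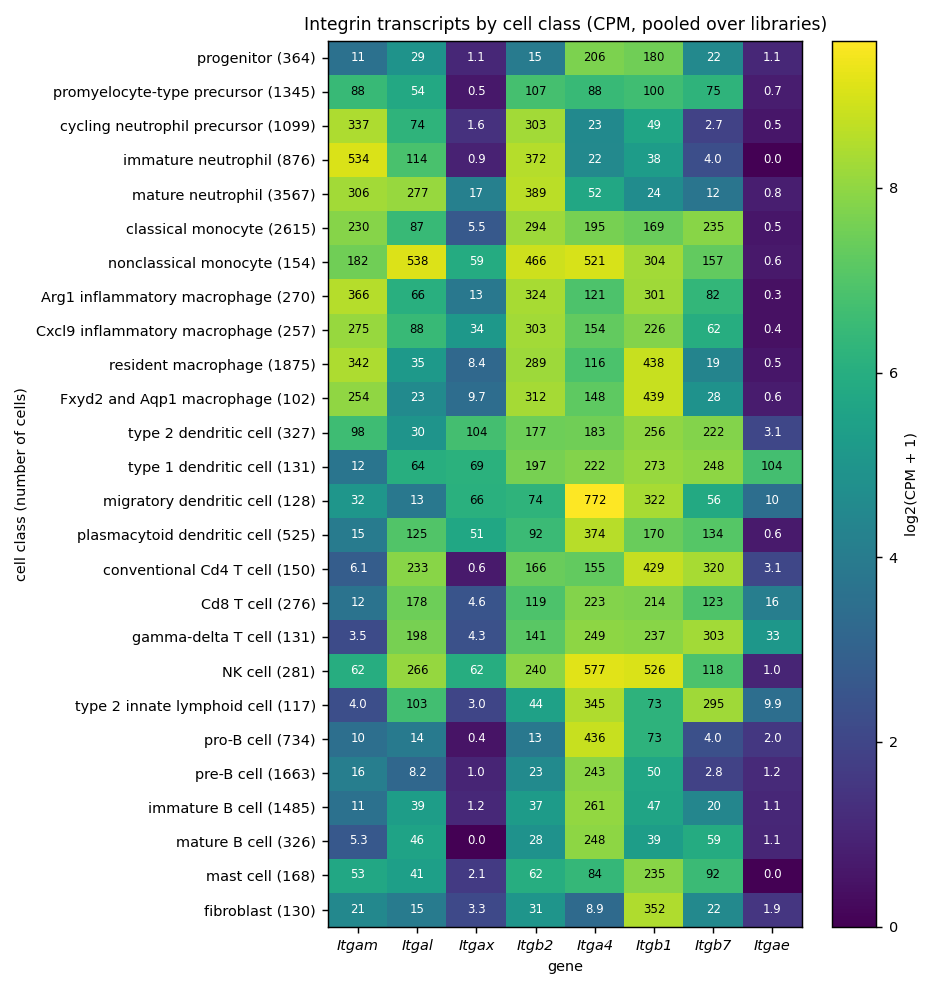
Pooled level of the 8 members (columns) in each of the 26 cell classes of at least 100 cells (rows, number of cells in parentheses); colour is log2(CPM + 1) and the printed number is CPM. Itgam peaks in immature neutrophils (534), Itgae in type 1 dendritic cells (104), and Itga4 in migratory dendritic cells (772).

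Itgb2, the shared beta chain, reached 466 CPM in nonclassical monocytes, with 551, 396 and 453 CPM in libraries 4, 5 and 6. Neutrophils of all stages stood at 414 CPM (402 lowest, 417 median, 459 highest library), classical monocytes at 294 (259, 304 and 347) and resident macrophages at 289 (248, 291 and 334). The neutrophil range lay above both of the others. NK cells had 240.0 CPM and T cells 136 CPM, whereas B cells had 25.1 CPM (22.2, 24.2 and 32.6) and pro-B cells 13.2. Neutrophils exceeded B cells 16.5-fold, with a log2 ratio of 4.05 (3.71 to 4.22 over the 6 libraries) and ranges that did not overlap. In that comparison 3 of 6 members tested were higher in neutrophils without overlap (Itgam, Itgal and Itgb2), beside 16.0% of all genes of at least 10 CPM, and Itga4 was lower, beside 71.6%. Resident and inflammatory macrophages (289 and 314 CPM) overlapped, and residents were higher in 2 of 6 libraries.

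Among the 26 classes Itgam was highest in immature neutrophils, at 534 CPM (498, 536 and 624 in the lowest, median and highest library), and this class led in all 6 libraries. No other of the 26 classes with at least 3 libraries reached into that range. The 5123 neutrophils set to neither stage, which were not ranked, did so with 542 CPM (502 to 584). Arg1 inflammatory macrophages followed at 366 CPM, resident macrophages at 342 (296, 344 and 386), cycling neutrophil precursors at 337, mature neutrophils at 306 and Cxcl9 inflammatory macrophages at 275, and each of these overlapped the next. Neutrophils as a whole stood at 489.8 CPM against 229.6 CPM in classical monocytes (199, 224 and 321), a 2.13-fold difference with no overlap and the same sign in 6 of 6 libraries. Of the members tested 3 of 6 were higher without overlap in neutrophils and 3 of 6 lower, beside 13.2% and 66.1% of all genes.

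To set Itgam beside neutrophil transcripts found in other classes, the 8 neutrophil markers of the gate (Ly6g, Mmp8, Mmp9, Retnlg, Cxcr2, Csf3r, S100a8 and S100a9) were measured in each as percent of the neutrophil level. In resident macrophages the 8 markers ran from 1.67% (Ly6g) over 13.8% (Cxcr2) to 26.0% (Csf3r), with a median of 4.74%. The ungated Mmp9, S100a8 and S100a9 stood at 7.00%, 3.65% and 3.81% there, and Itgam at 69.8%. In classical monocytes the 8 markers ran from 0.229% to 18.3% with Itgam at 46.9%. NK cells, a lineage of which a part carries CD11b, had Itgam at 61.6 CPM (50.6 to 87.2), 12.6% of the neutrophil level, with the markers at 0.849% or less. In mast cells the markers ran from 1.17% to 12.9% with a median of 6.44%, and 2 of the 8 (Cxcr2 at 11.7% and Csf3r at 12.9%) lay above Itgam at 10.8%. Itgb2 in mast cells stood at 14.8%. The part of neutrophil RNA in the Itgam and Itgb2 of mast cells, and of the other classes named here, was not tested. T and B cells had 9.27 and 11.9 CPM of Itgam. With each cell thinned to 3000 UMIs, 69.5% of neutrophils and 1.68% of T cells had an Itgam UMI (84.6% and 4.90% unthinned, at median depths of 6820 and 9569 UMIs).

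Itgal showed a single outstanding class. Nonclassical monocytes, the patrolling monocytes that carry Ace and Cd300e, had 538 CPM, with 667, 416 and 550.0 CPM in libraries 4, 5 and 6, while classical monocytes had 86.7 CPM (71.0, 83.8 and 97.9). The difference was 6.20-fold (log2 ratio 2.63, 2.32 to 2.98 over 3 libraries) with no overlap. Of the 7 members tested between these monocytes, 5 were higher in the nonclassical cells without overlap (Itgal, Itgax, Itgb2, Itga4 and Itgb1), beside 11.1% of all genes, and Itgb7 was lower, beside 12.2%. The remaining libraries held fewer than 20 nonclassical monocytes each.

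Mature neutrophils (277 CPM), NK cells (266), conventional Cd4 T cells (233) and gamma-delta T cells (198) came next for Itgal, and each overlapped the next in library range. T cells and neutrophils as wholes both stood at 186 CPM, with T cells higher in 3 of 6 libraries and a log2 ratio of 0.00 (counting interval −0.07 to 0.07, which covers counting error only). Of the 7 members tested between them, 4 were higher in T cells without overlap (Itga4, Itgb1, Itgb7 and Itgae) and 2 lower (Itgam and Itgb2), beside 64.0% and 16.4% of all genes. Resident macrophages had 35.4 CPM (26.0, 32.9 and 46.5), below the inflammatory macrophages at 76.5 CPM (66.7, 76.3 and 90.4) without overlap. Itgal and Itgb7 were the 2 of 7 members lower in residents, beside 7.15% of all genes, and Itgb1 the 1 that was higher, beside 17.8%. Itgam in these macrophages differed by a log2 ratio of 0.09, with overlapping ranges and the same sign in 6 of 6 libraries.

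Itgax, the CD11c gene by which dendritic cells are often sorted, was a gene of low counts, with 6231 UMIs in the whole table against 125590 for Itgam. Type 2 dendritic cells (Cd209a) led with 104 CPM (89.4, 96.2 and 127), and the class led in 5 of 6 libraries. Type 1 dendritic cells (68.7), migratory dendritic cells (66.4), NK cells (61.9), nonclassical monocytes (59.4) and plasmacytoid dendritic cells (51.1) followed, with ranges that overlapped each other. The ranges of migratory dendritic cells (40.4 to 145 CPM) and nonclassical monocytes (54.0 to 89.9) also reached into that of the type 2 dendritic cells. Classical monocytes had 5.47 CPM (2.51, 4.76 and 11.3), 19.0-fold below the type 2 dendritic cells, without overlap. In this comparison Itgax was the 1 of 7 members that was higher, beside 7.97% of all genes, and Itgam, Itgal and Itgb2 were lower, beside 13.8%. Dendritic cells made up 3.37% of the cells and held 21.8% of the Itgax UMIs. Monocytes and macrophages (22.3% of the cells) held 24.3%, and the cells that were not placed (15.3%) held 37.2%.

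Among macrophages Itgax was highest in the Cxcl9 subset, whose range lay above that of resident macrophages only. Cxcl9 inflammatory macrophages, which carry the interferon-induced chemokine Cxcl9, had 32.9, 18.5, 46.5 and 43.5 CPM in libraries 1, 3, 4 and 5, Arg1 inflammatory macrophages between 2.83 and 18.6 CPM in 5 libraries, and resident macrophages 8.38 CPM (3.43, 6.55 and 17.5). The Cxcl9 and Arg1 ranges overlapped between 18.5 and 18.6 CPM. The Fxyd2 and Aqp1 macrophages (9.72 CPM, 1.66 to 25.9 in 3 libraries) overlapped every other macrophage subset. The inflammatory macrophages together exceeded the classical monocytes in 6 of 6 libraries (23.5 against 5.47 CPM, log2 ratio 2.10), but their ranges overlapped. No member of 7 was higher without overlap there, and Itgb7 was lower, beside 4.82% and 7.99% of all genes. After thinning to 3000 UMIs, 23.6% of type 2 dendritic cells had an Itgax UMI, against 1.30% of classical monocytes and 0.19% of B cells (67.9%, 4.70% and 0.478% unthinned, at median depths of 18211, 15383 and 5754 UMIs). In mature B cells, at a median depth of 5466 UMIs, 0 of 326 cells had one, which allows up to 0.920% of cells with an Itgax UMI and sets no limit on the share of cells that express the gene.

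**Figure D2:**
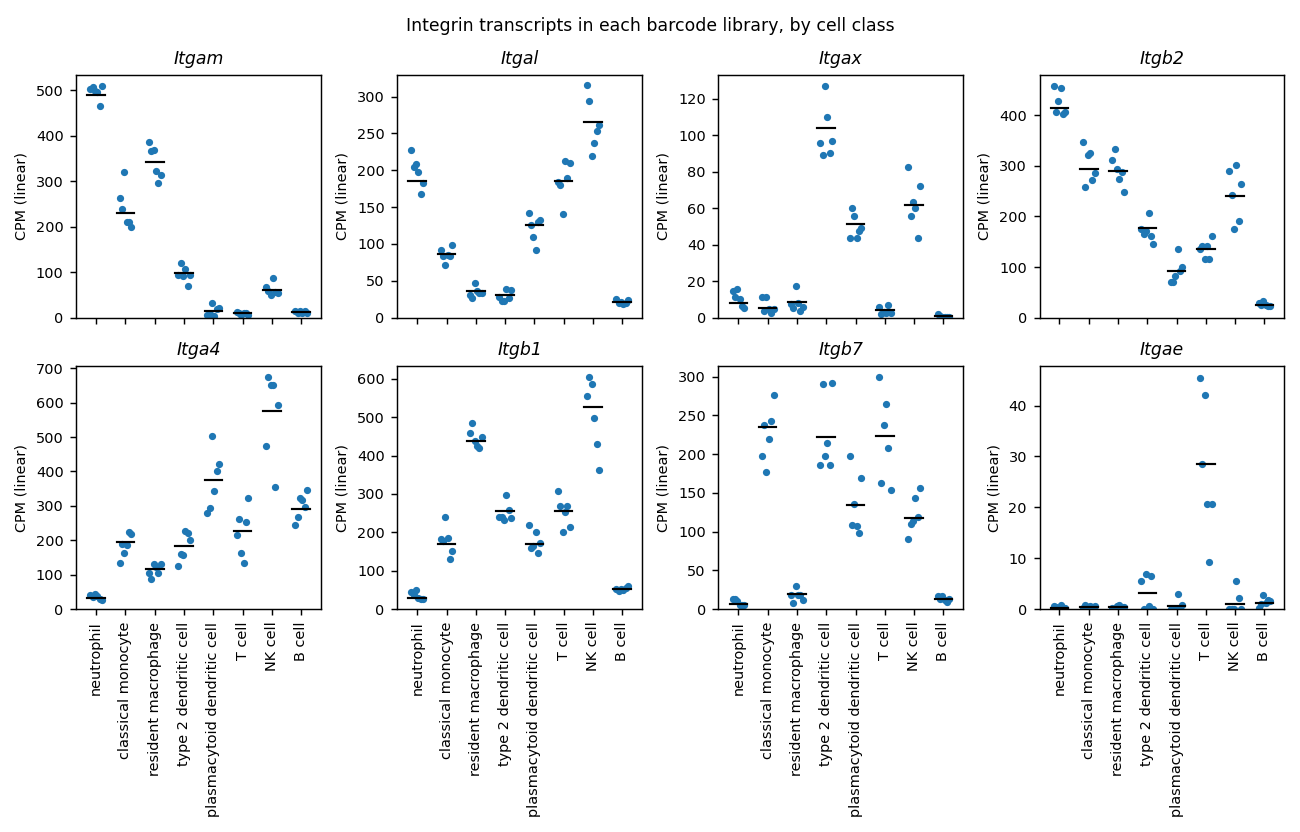
Level of each member (CPM, linear axis from 0) in each barcode library (blue points, libraries of unknown treatment) for 8 cell classes; the black bar is the level pooled over all cells. Itgam in neutrophils lies between 464 and 509 CPM, above the 199 to 321 CPM of classical monocytes, while Itgb7 in T cells spreads from 154 to 299 CPM.

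The beta-2 family changed make-up along the neutrophil stages. Itgam went from 88.2 CPM in promyelocyte-type precursors to 337 in cycling precursors and 534 in immature neutrophils, and stood at 306 CPM in mature neutrophils that carry Cxcr2 and lack Ltf and Camp (289, 312 and 351). Mature cells were lower than immature cells in 6 of 6 libraries, with a log2 ratio of −0.80 (−0.97 to −0.60) and no overlap. With the counts of the Itgam.1 row added the ratio was −0.72. Itgal went the other way, from 54.0 CPM in promyelocyte-type precursors through 74.4 and 114 to 277 CPM (262, 295 and 309.9) in mature cells. Its level in immature neutrophils ran from 95.4 to 132 CPM, so the ranges did not overlap (log2 ratio 1.28, 1.14 to 1.64).

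Itgax was near 0 in the first stages, with 9 UMIs in 876 immature neutrophils (0.878 CPM), and reached 17.1 CPM (12.0, 22.0 and 35.1) in mature neutrophils. The ranges did not overlap, and 3 of the 6 libraries had no Itgax UMI in immature cells. Itgb2 went from 107 CPM in promyelocyte-type precursors to 303 CPM in cycling precursors. From immature (372 CPM) to mature neutrophils (389 CPM) its CPM held nearly level, with a log2 ratio of 0.07. The ranges overlapped, and mature cells were higher in 4 of 6 libraries. The ratio was −0.01 when clusters took the place of the gated stages. Of the 7 members tested 3 were higher in mature cells without overlap (Itgal, Itgax and Itgb7), beside 27.5% of all genes of at least 10 CPM (44.9% of those of at least 50 CPM), and 1 was lower (Itgam), beside 21.0%. The depth also differed, with a median of 11579 UMIs in immature and 4700 in mature neutrophils. The 5123 neutrophils set to neither stage had Itgam at 542 CPM (502 to 584), a range that overlapped that of the immature cells. Their Itgal stood at 169 CPM (153 to 206), above the immature range. Their Itgb2 stood at 430.1 CPM (415 to 489), with a range that overlapped those of both stages.

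The chains outside the beta-2 family had low levels in neutrophils. Itga4 went from 87.8 CPM in promyelocyte-type precursors to 22.7 in cycling precursors and 21.6 in immature neutrophils, and stood at 52.4 CPM (39.5, 53.5 and 66.0) in mature cells. Mature cells were higher in 6 of 6 libraries, but the ranges overlapped through library 3, whose 35 immature neutrophils had 39.8 CPM. Itgb1 stood at 100.1, 49.3, 38.0 and 24.1 CPM along the stages, with mature cells below immature ones in 6 of 6 libraries and overlapping ranges. Itgb7 went from 75.0 CPM in promyelocyte-type precursors to 2.73 CPM in cycling precursors, 4.00 in immature and 12.3 CPM in mature neutrophils. Immature neutrophils had no Itgae UMI, which allows up to 0.293 CPM.

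**Figure D3:**
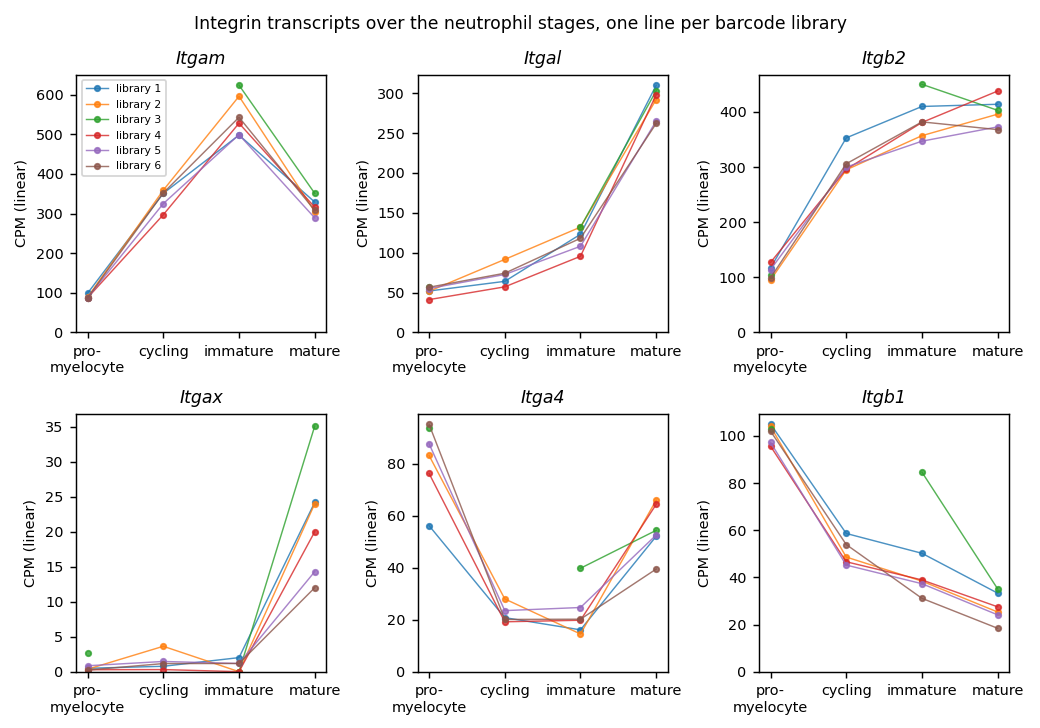
Level of 6 members (CPM, linear axes from 0) over 4 neutrophil stages, from promyelocyte-type precursors to mature neutrophils, with one line per barcode library; library 3 has no point at the cycling stage, where it held 10 cells. Itgam is highest in immature neutrophils in every library, while Itgal and Itgax are highest in mature neutrophils.

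The alpha chains that can pair with Itgb2 were set against each other as shares of their summed UMIs, which can be compared between classes although capture differs between genes. In immature neutrophils Itgam made up 82.3% of these UMIs and Itgal 17.6%, and in mature neutrophils 50.9% (49.1% to 52.8% over libraries) and 46.1% (44.0% to 47.0%). Classical monocytes had 71.3% Itgam and 26.9% Itgal, whereas nonclassical monocytes had 23.3% and 68.9%. Resident macrophages had the Itgam-dominated mix of 88.4% (85.2% to 92.2%). Type 2, type 1 and migratory dendritic cells stood apart by Itgax, with 44.8%, 47.1% and 59.6%, against 2.17% in resident macrophages. Plasmacytoid dendritic cells had 23.6% Itgax and 57.9% Itgal. T cells had 92.4% Itgal, and NK cells a mix of 67.0% Itgal, 15.5% Itgam and 15.6% Itgax. Itgad, the fourth partner, reached 11.5% (5.13% to 15.2%) in plasmacytoid dendritic cells, where it stood at 24.9 CPM (10.7, 22.7 and 35.0), and 1.94% or less in every other class of at least 100 cells except gamma-delta T cells (3.99%) and pre-B cells (7.07% of 297 UMIs).

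**Figure D4:**
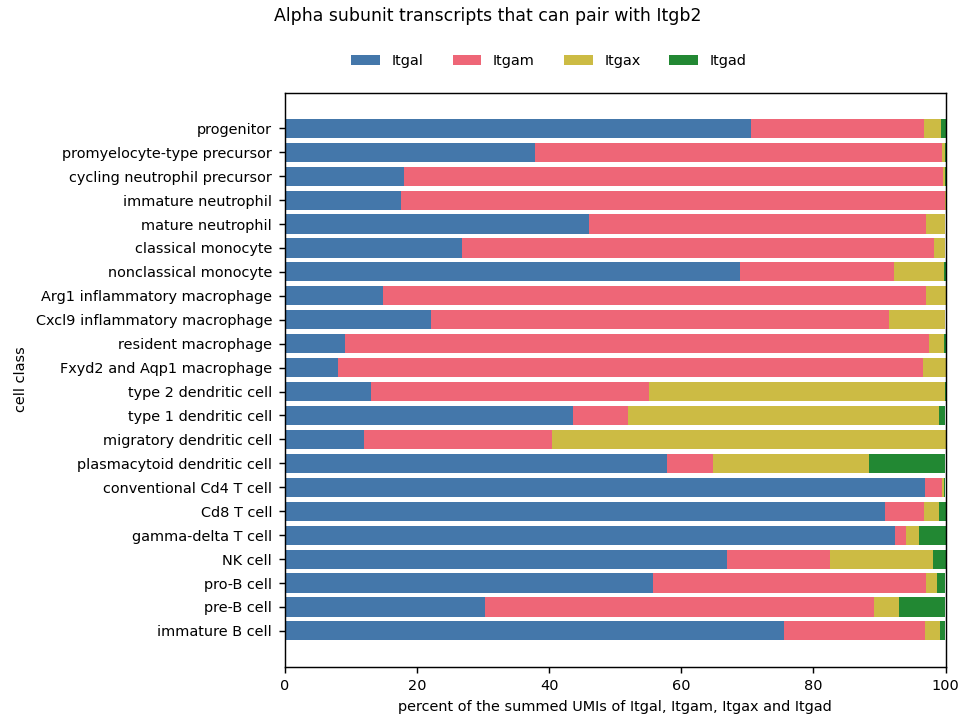
Shares of Itgal, Itgam, Itgax and Itgad in the summed UMIs of these 4 alpha chains (horizontal axis, percent) for each class with at least 200 such UMIs. The Itgal share is 17.6% in immature and 46.1% in mature neutrophils, and Itgax takes 44.8% in type 2 dendritic cells.

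Itga4 was spread over lymphoid cells, dendritic cells, monocytes and macrophages and was low in neutrophils and fibroblasts. Monocytes and macrophages held 30.5% of its UMIs (25.7% of all UMIs), B cells 17.9% (8.30%) and dendritic cells 9.32% (3.77%). Migratory dendritic cells, marked by Ccr7 and Fscn1, had 603, 1006, 525 and 706 CPM in libraries 1, 3, 4 and 5 (772 pooled), and NK cells 577 CPM (356, 622 and 674). These ranges overlapped, and overlapped those of nonclassical monocytes (521) and pro-B cells (436). In the B lineage pro-B cells had 396 to 540.0 CPM, above the pre-B (243 CPM, 181 to 303), immature (261, 247 to 295) and mature B cells (248, 196 to 339), whose ranges overlapped each other. Classical monocytes had 195 CPM (135, 188 and 225) and neutrophils 31.3 CPM (27.1, 36.4 and 43.9), a 6.24-fold difference with no overlap. Fibroblasts had 8.92 CPM from 19 UMIs. For regulatory against conventional Cd4 T cells (128 and 155 CPM) no library held 20 regulatory T cells, and the log2 ratio of −0.28 had a counting interval of −0.65 to 0.09, so a difference was not detectable at this depth. Without library 1 the ratio was 0.54 and without library 5 it was −1.03.

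Itgb1, the beta chain used by cells of nearly every tissue, was high in NK cells at 526 CPM (361, 526 and 604), in the Fxyd2 and Aqp1 macrophages at 439, in resident macrophages at 438 (419.6, 444 and 485) and in conventional Cd4 T cells at 429 CPM, with overlapping ranges. Fibroblasts, sorted along with the CD45+ cells in small numbers, had 352 CPM. Resident macrophages exceeded classical monocytes (169 CPM; 131, 181 and 240.2) 2.60-fold, with no overlap and a log2 ratio of 1.38 (0.87 to 1.67). Of the 6 members tested here Itgb1 was the 1 that was higher without overlap, beside 25.7% of all genes, and Itgal, Itga4 and Itgb7 were lower, beside 17.7%. Mast cells had 263, 203 and 189 CPM in libraries 1, 4 and 5, against 29.7 CPM in neutrophils (25.0, 33.4 and 48.7), a log2 ratio of 2.99 without overlap. In that comparison 3 of 6 members were higher in mast cells and 3 of 6 lower, beside 52.6% and 15.5% of all genes. B cells were low for this chain, at 52.1 CPM (47.9, 51.8 and 60.9).

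Itgb7, best known as a gut homing chain, was found in T cells, innate lymphoid cells, dendritic cells and monocytes of the sort. Conventional Cd4 T cells had 344, 264, 325 and 358 CPM in libraries 1, 3, 4 and 5 (320.0 pooled), gamma-delta T cells 303 CPM and type 2 innate lymphoid cells 295 CPM. The 58 regulatory T cells had 453 CPM, with no library large enough for a range. Type 1 and type 2 dendritic cells stood at 248 and 222 CPM and classical monocytes at 235 CPM (177, 228 and 276). The level was 81.7 CPM in Arg1 and 62.1 CPM in Cxcl9 inflammatory macrophages and 19.2 CPM (7.80, 17.9 and 29.6) in resident macrophages, and the monocyte range overlapped none of these. T cells (223 CPM; 154, 223 and 299) exceeded B cells (9.65, 13.2 and 16.6 CPM) 17.1-fold without overlap. There 5 of 7 members were higher in T cells (Itgal, Itgb2, Itgb1, Itgb7 and Itgae) and 0 lower, beside 16.0% and 30.6% of all genes.

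Within the B lineage Itgb7 was 4.02 CPM in pro-B and 2.75 CPM in pre-B cells, 19.9 CPM in immature and 59.1 CPM (48.7 to 64.6) in mature B cells, and the last range lay above the others. Plasmacytoid dendritic cells had 134 CPM against 222 CPM in type 2 dendritic cells, lower in 5 of 6 libraries with overlapping ranges. Between these dendritic cells 2 of 7 members were higher in the plasmacytoid class without overlap (Itgal and Itga4) and 4 were lower (Itgam, Itgax, Itgb2 and Itgb1), beside 22.4% and 11.2% of all genes. Conventional Cd4 T cells exceeded Cd8 T cells (123 CPM; 78.2, 119 and 167) without overlap, and Itgb7 was the 1 of 7 members to do so, beside 7.09% of all genes.

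Itgae, the rarest of the 8 with 1451 UMIs in the table, was held by few cells. Dendritic cells held 24.4% of these UMIs, T, NK and innate lymphoid cells 19.2%, and the cells that were not placed 41.2%. Type 1 dendritic cells, which carry Clec9a and Xcr1, had 116, 115 and 139 CPM in libraries 1, 3 and 4, against 3.15 CPM in type 2 dendritic cells (0 to 6.82). The ranges did not overlap, at a log2 ratio of 5.04 that rests on 20 UMIs in the second class. The 45 type 1 dendritic cells of the 3 smaller libraries had 52.4 CPM, which brings the pooled level to 104 CPM. Of the 8 members tested between these classes 2 were higher in type 1 cells (Itgal and Itgae) and 2 lower (Itgam and Itgax), beside 11.3% and 12.2% of all genes. After thinning to 3000 UMIs, 19.1% of type 1 dendritic cells had an Itgae UMI, against 0.602% of type 2 dendritic cells and 0.0603% of neutrophils (46.6%, 2.45% and 0.146% unthinned, at median depths of 21620, 18211 and 6820 UMIs).

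In the T lineage gamma-delta T cells had 31.3, 48.2, 39.8 and 38.2 CPM of Itgae in libraries 1, 2, 4 and 6, although 9.92% of them had a UMI. The 58 regulatory T cells had 157 CPM from 93 UMIs, and 46.6% of them had a UMI. Cd8 T cells had 16.2 CPM (5.36, 14.3 and 30.4) and conventional Cd4 T cells 3.07 CPM (0 to 6.77), higher in Cd8 cells in 4 of 4 libraries with overlapping ranges, and the second value rests on 5 UMIs. No member of 7 was higher in Cd8 than in Cd4 T cells without overlap, beside 5.24% of all genes. NK cells had 3 Itgae UMIs and mast cells 0, which for mast cells allows up to 3.18 CPM.

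Partner chains met in the same cells to different extents. After thinning to 3000 UMIs, Itgam and Itgb2 were both found in 48.9% of neutrophils, 52.7% of immature neutrophils, 38.8% of Arg1 inflammatory macrophages, 31.5% of resident macrophages and 0.608% of T cells. Itgal and Itgb2 were both found in 55.7% of nonclassical monocytes, 35.1% of mature neutrophils, 30.8% of NK cells and 3.56% of resident macrophages. For Itga4 the beta partners divided the classes. Itga4 with Itgb1 was found in 55.1% of NK cells, 45.0% of migratory dendritic cells and 18.9% of resident macrophages, and Itga4 with Itgb7 in 22.4%, 8.34% and 0.948% of the same classes. Classical monocytes (14.9% with Itgb1 and 19.9% with Itgb7) and type 2 innate lymphoid cells (5.78% and 18.4%) had the higher share for the Itgb7 pair. So did mature B cells (4.33% and 7.30%), type 1 dendritic cells (20.1% and 21.3%) and the smaller classes of basophils and regulatory T cells. Because capture differs between genes, these shares can be compared between classes but do not rank Itgb1 against Itgb7 within a class. Itgae with Itgb7 was found in 20% of the regulatory T cells (41.4% of the 58 unthinned), 8.42% of type 1 dendritic cells and 5.42% of gamma-delta T cells. A cell with no UMI of a chain may still express it, since these shares depend on depth, and paired transcripts do not show a paired receptor.

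The share of Itgb7 in the summed UMIs of Itgb1 and Itgb7 was 58.2% (42.4% to 64.9%) in classical monocytes, 21.4% in inflammatory macrophages (13.2% to 32.2%) and 4.20% (1.58% to 6.32%) in resident macrophages, with no overlap between the 3 classes. It was 80.3% in type 2 innate lymphoid cells, 56.1% in gamma-delta T cells, 46.7% in all T cells, 18.3% in NK cells and 14.8% in migratory dendritic cells. In B cells it was 5.21% at the pro-B stage, 5.16% at the pre-B stage, 29.6% in immature and 60.2% in mature B cells.

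Other integrin genes were taken from a list of 18 further subunits, 12 ligands and 19 genes of inside-out activation, of which 18, 11 and 19 were in the table and 9, 8 and 16 reached 50 CPM in a class of at least 100 cells. Among the subunits Itgav and Itgb3, which form a vitronectin receptor, led in type 2 innate lymphoid cells (919.8 and 194 CPM). Itga2, a collagen receptor chain, was at 372 CPM in mast cells and 279 in NK cells, Itga2b at 103 CPM in progenitors, and Itga5, the fibronectin receptor chain, at 604 CPM in fibroblasts. Itga1 had 127 CPM in type 1 dendritic cells, Itga6 137 CPM in progenitors, Itga9 358 CPM in mast cells and Itgb5 146 CPM in fibroblasts.

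The ligands lay partly in the same sort. Icam1, the ligand of LFA-1 and Mac-1, had 568 CPM in fibroblasts and 239 CPM (157 to 315) in resident macrophages against 36.0 CPM (22.9 to 59.8) in classical monocytes. Vcam1, bound by the Itga4 and Itgb1 pair, had 80.7 CPM in fibroblasts and 78.8 CPM in promyelocyte-type precursors, and Fn1, encoding fibronectin, 2885 CPM in fibroblasts and 2156 CPM in Arg1 inflammatory macrophages. Cdh1, encoding the E-cadherin bound through Itgae, was at 95.9 CPM (70.0 to 109.8) in plasmacytoid dendritic cells. C3, whose fragment Mac-1 binds, had 1209 CPM in fibroblasts and 483 CPM in cycling neutrophil precursors. Spp1 had 1539 CPM (531 to 3096) in Arg1 inflammatory macrophages and 1323 CPM in fibroblasts. Thy1 led in conventional Cd4 T cells (418 CPM) and F11r in the Fxyd2 and Aqp1 macrophages (114 CPM).

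Of the activation genes, Tln1 (talin), Rap1b, Apbb1ip and Rassf5 all led in nonclassical monocytes, at 433, 996, 512 and 112 CPM. This class of 154 cells, with 3 libraries in its range, also led for Itgal and Itgb2. For Itgb2 its range overlapped that of mature neutrophils. The share of all genes that led in this class was not determined. Skap2, an adaptor protein, led in mature neutrophils (497 CPM). Cyth1, the exchange factor cytohesin-1 that binds the beta-2 tail, had 1025 CPM (935 to 1128) in mature neutrophils. Mature B cells, with Itgb2 at 28.5 CPM, had nearly the same level of Cyth1 (996 CPM). Skap1 led in Cd8 T cells (1326 CPM), Rasgrp2, which loads Rap1, in pro-B cells (275 CPM), and Fermt3, the kindlin of blood cells, in progenitors (251 CPM). Cytip, which restrains beta-2 adhesion through cytohesin, led in migratory dendritic cells (1262 CPM), and Rap1a and Fyb in plasmacytoid dendritic cells (1079 and 902 CPM). Ilk led in the Fxyd2 and Aqp1 macrophages (83.0 CPM), Vcl in mast cells (507 CPM), and Tln2 and Fermt2 in fibroblasts (104 and 264 CPM).

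From immature to mature neutrophils, 6 of the 15 activation genes of at least 10 CPM were higher without overlap (Rap1b, Apbb1ip, Skap2, Fyb, Cyth1 and Cytip) and 4 lower (Tln1, Fermt3, Ilk and Vcl), beside 27.5% and 21.0% of all genes. Among genes of at least 50 CPM the higher share was 44.9%. The median log2 ratio of the 15 was 0.10, beside 0.03 over all genes tested. Apbb1ip, Skap2 and Fyb are adaptors of the Rap1 route, and Tln1, Fermt3, Ilk and Vcl link integrins to actin. Other listed genes of the Rap1 route overlapped between immature and mature cells. These were Rap1a (156 and 141 CPM), Rassf5 (68.6 and 73.6) and Rasgrp2 (75.8 and 80.9). Skap2 stood at 219.5 CPM (143 to 261) in immature and 497 CPM (438 to 531) in mature cells, and Fermt3 at 153 CPM (127 to 163) and 76.7 CPM (67.2 to 85.3). From classical monocytes to resident macrophages, 3 of 16 were higher (Fermt2, Rap1a and Rap1b) and 5 lower (Fermt3, Rasgrp2, Fyb, Cytip and Sharpin), beside 25.7% and 17.7% of all genes, with a median of −0.25 beside 0.06. Of 6 other subunits tested, Itga5, Itga9 and Itgav were higher in resident macrophages without overlap and Itga1 was lower, and of 6 ligands Icam1 was higher and Icam2 and C3 were lower.

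**Figure D5:**
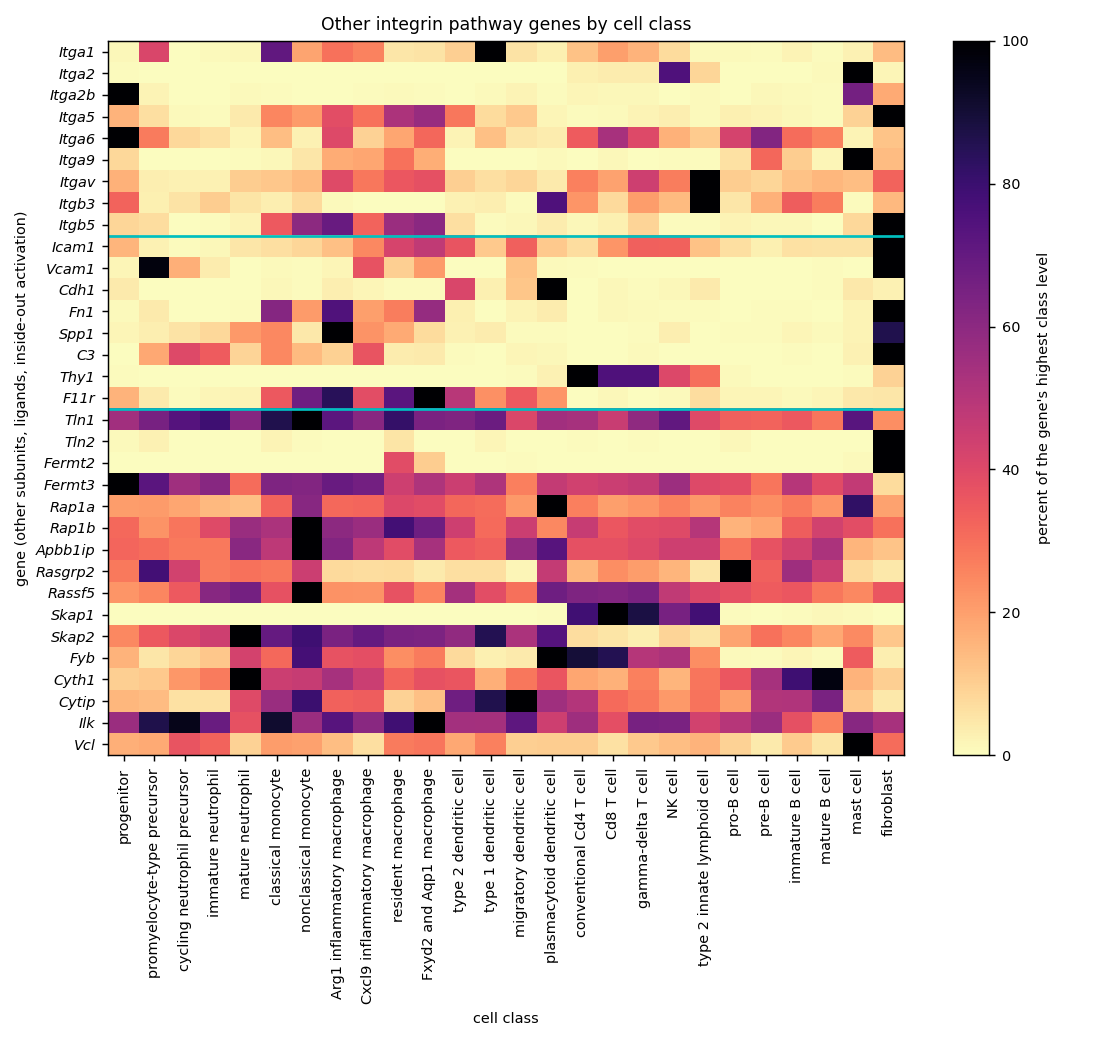
Level of the other pathway genes of at least 50 CPM in a class (rows, with lines dividing other subunits, ligands and activation genes) in the 26 classes (columns), as percent of the gene's highest class. Tln1, Rap1b, Apbb1ip and Rassf5 reach 100% in nonclassical monocytes, and Skap2 and Cyth1 in mature neutrophils. Cyth1 is nearly as high in mature B cells (996 against 1025 CPM).

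The genes whose log2(CPM + 1) over the 26 classes was most like each member were sought among 7511 genes of at least 50 CPM in a class, as a description in which the classes share libraries and depth. Itgam was closest to Clec4a2 (r = 0.94), Clec5a (0.93) and Fcgr3 (0.93), and Itgb2 to Myo1f, Vsir and Apobr (0.91 each). Itgal was closest to Bin2 (0.85), Hcst (0.77) and Ptprc (0.75), and Itgax to Prr5l (0.93), Olfm1 (0.76) and Vdr (0.76). Itga4 was nearest to St8sia4 (0.84), Ambra1 (0.82) and Prpf38b (0.82), Itgb1 to Pea15a (0.88) and, at lower r, Capn2 (0.86), Itgb7 to Batf (0.83), Rara (0.82) and Arl6ip5 (0.82), and Itgae to Cd226 (0.73), Asap2 (0.71) and Fnbp1 (0.71). Between members, r with Itgb2 was 0.74 for Itgam, 0.61 for Itgal and 0.50 for Itgax, its alpha partners, and 0.26 for Itgb1 and −0.19 for Itga4, which are none. For the other partner pairs r was 0.23 (Itga4 with Itgb1), 0.43 (Itga4 with Itgb7) and 0.45 (Itgae with Itgb7), and pairs that are no partners reached similar values, such as Itgb1 with Itgb7 (0.55), Itgax with Itgb1 (0.50) and Itgal with Itgb7 (0.47).

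Within a class the libraries differed more for some members than for others. In neutrophils the highest library exceeded the lowest by 1.10 times for Itgam, 1.14 for Itgb2 and 1.35 for Itgal, beside a median of 1.35 over 2183 genes of at least 50 CPM. In T cells Itga4 differed by 2.40 times and Itgb7 by 1.95 times between libraries, beside a median of 1.51, and in classical monocytes Itgb1 by 1.83, Itga4 by 1.67, Itgam by 1.61 and Itgb7 by 1.56 times, beside 1.43. Library 3 was highest for Itgam and Itgb1 in classical monocytes and lowest for Itgb7 and Itgal. The cells of a class were also divided among subsets to different degrees in each library, and the part of this in the spread was not tested. Because treatment is unknown for each library, these differences are not assigned to vehicle or PEPITEM.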

How the data were processed

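The authors sequenced CD45+ synovial cells with the Chromium 3′ kit, ran Cell Ranger 7 with the mouse build mm10, corrected ambient RNA with SoupX, removed doublets with DoubletFinder and filtered cells with Seurat, and deposited 1 table of whole UMI counts that was not scaled for depth. The annotation release is not given in the sources used here. No column of per-sample values was left unused (0), and no source used here links library numbers to samples.

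From the deposited counts, cells were scored on 15 lineage marker panels. A cell took the leading lineage when it had at least 2 detected markers and 1.5 times the next score, and subsets were set by fixed markers, none an integrin. Counts were summed per class and library and scaled to CPM. A difference was described by the log2 ratio of pooled CPM and by whether library ranges overlapped, with the share of all genes of at least 10 CPM that did the same. No p-value was computed, because libraries of unknown treatment are not replicates and cells are not either. Counting intervals (95%) cover counting error only, and a count of 0 was given a limit of 3 counts. The thinned shares are the expected shares when 3000 UMIs of a cell are kept, leaving out shallower cells. The script was tested on simulated data. Named genes are the 8 members, listed pathway genes of at least 50 CPM in a class of at least 100 cells, the 3 genes most like each member (of which 1 is not reported here), and gating markers; Sharpin, Icam2 and Itgad, below 50 CPM, and genes of small classes were named after their values were seen. The members, lists and markers were chosen with earlier results of these data known. Alternatives were a stricter gate, Leiden clusters (scanpy 1.11.5) made without integrin genes, other weights of libraries and cells, thinning, depth limits and leaving out libraries. Python 3.11.15, numpy 2.4.6, scipy 1.17.1 and pandas 2.3.3 were used.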

Additional observations from a re-analysis of the deposited data

How the results depend on the processing

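No paired analysis was possible because the library numbers of the barcodes are not tied to the samples, so that vehicle and PEPITEM were not compared and the replicate numbers of the labels could not be used. Of 257 alternative values of the 22 differences between classes (log2 ratios), 237 lay within the spread of the value given. The spread was 1 SD over libraries, or the counting interval where fewer than 3 libraries had UMIs in both classes. Of the 237, 126 came from leaving out 1 library, which keeps most of the cells. With Leiden clusters 9 of 16 lay within it. All 22 did so under the stricter gate and without cells above 40000 UMIs. In Leiden clusters in place of gated classes, which held a matching cluster for both classes in 16 differences and not in the remaining 6, the ratio was 2.84 for Itgax in type 2 dendritic cells over classical monocytes, 2.06 for Itga4 in classical monocytes over neutrophils, 1.08 for Itgb1 in resident macrophages over classical monocytes and 2.61 for Itgb1 in mast cells over neutrophils. A cluster was named by the majority of its gated cells, and in a cluster named immature neutrophil only 8.98% of cells were in a listed class. Another cluster, of 456 cells, was counted both as classical monocytes and, by its broad name, as neutrophils. The cluster ratios of Itga4 and Itgam between these classes thus hold the same cells on both sides. Other cluster ratios with either class include these cells too. Between mature and immature neutrophils the clusters gave 1.02 for Itgal, 3.96 for Itgax and −0.01 for Itgb2. The Itgb2 sign thus turned there and with the mean of single-cell CPM (−0.06), and of the other 21 differences the sign changed under some setting for Itgal in T cells over neutrophils (−0.16 to 0.07 around 0.00) and Itga4 in regulatory T cells. With that mean Itgam gave −0.97, Itgax 3.96 and Itga4 in regulatory over conventional Cd4 T cells 0.24. The median of library CPM gave 2.60 for Itgb1 in mast cells and 5.23 for Itgax in mature neutrophils, and thinning to 3000 UMIs 3.27 for Itgb1 in mast cells. Leaving out 1 library at a time moved Itga4 in regulatory T cells from −1.03 (without library 5) to 0.54 (without library 1), and Itgax in mature over immature neutrophils from 4.03 to 4.73. With classes of at least 50 cells, regulatory T cells led for Itgb7 (453 CPM) and Itgae (157 CPM). The cause of these shifts was not tested.

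Thinning lowered the shares of cells with both chains, by its construction, from 76.3% to 48.9% for Itgam with Itgb2 and from 63.2% to 30.3% for Itgal with Itgb2 in neutrophils, from 71.2% to 14.9% for Itga4 with Itgb1 and from 74.8% to 19.9% for Itga4 with Itgb7 in classical monocytes, from 62.7% to 9.99% for Itgax with Itgb2 in type 2 dendritic cells, and from 45.0% to 8.42% for Itgae with Itgb7 in type 1 dendritic cells. Among genes of at least 50 CPM the share not overlapping was 11.6% for lower in resident than inflammatory macrophages, 11.2% for lower in Cd8 than Cd4 T cells and 44.9% for higher in mature than immature neutrophils. With log2(CPM + 10) the 3 genes most like Itgb2 and Itgb7 were the same, while 0 of 3 stayed for Itgae. Depth limits Itgae and Itgax most, with 1451 and 6231 UMIs in the table.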
